A study of Canis lupus familiaris with 60 samples.

Results

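CD14, CD163, MRC1 and CHI3L1 are 4 genes used as markers of monocytes and macrophages, and their RNA was followed in dog skin under house dust mite and saline patches. Their probes were found by the dog transcript identifiers of the genes or by the symbols in the study's own list of genes, which gave 7 probes on 17 spots of the array. These are 4 of the 1456 genes that could be named on the array, of which 1298 passed the filter on dim probes. All 7 probes passed that filter, which kept a probe when the scanner software marked it as well above background on 5 or more arrays within any 1 group.

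The skin came from 12 Beagle dogs of 2 to 3 years, 6 sensitized to house dust mite, as shown by an intradermal test and by specific IgE, and 6 nonsensitized. Each dog gave 5 punch biopsies of 8 mm from the shaved side of the chest: untreated skin at 0 h, and sites under an allergen patch (75 mg of mite paste) or a saline patch (50 µl) at 6 h and at 24 h, held by a bandage. Each biopsy was measured on 1 one-colour Agilent array, so the 10 groups held 6 arrays each, except that specimen 14, the sensitized 24 h allergen site of dog 2839, was left out and that group held 5. The RNA of that specimen was of low integrity by the study's own account, and its array had the lowest median processed signal of all 60 (70.97) and the lowest share of spots well above background (67.65%). The labels give 4 males and 2 females among the sensitized dogs and 2 males and 4 females among the nonsensitized dogs, and the sex of each dog was not used.

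Monocytes enter skin from the blood and become macrophages, which take up particles, clear debris and release cytokines. CD14 encodes the surface protein that passes bacterial lipopolysaccharide (LPS) to its receptor, CD163 the receptor that takes up haemoglobin bound to haptoglobin, and MRC1 the mannose receptor, a lectin that binds sugars on microbes and on the body's own glycoproteins. CHI3L1 encodes a secreted protein that binds chitin without cleaving it and is made by macrophages, neutrophils and other cells.

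Levels are scaled signals on a log2 scale, so that a difference of 1 is 2-fold, and they compare arrays for 1 probe, not genes with each other. The median processed signal of the 59 arrays ran from 81.7 to 146.12, and 68.85% to 80.15% of spots were well above background. No spot of the 4 genes was saturated on the arrays that report saturation, and the number of arrays limits the precision. Each gene is described by its brightest probe, which was well above background on every array. CD14 (identifier XM_843653.1), MRC1 (ENSCAFT00000007254) and CHI3L1 (DR108503) had 1 spot on that probe, and CD163 (NM_001048020) had 11. A difference was called when the limma fit over all 45972 probes gave a Benjamini-Hochberg adjusted p below 0.05 and the change was at least 1.5-fold. Errors of differences are standard errors (SE) of that fit. Statements on ranges that overlap or do not overlap are a description, and the share of all probes whose ranges separate is not given.

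Before any patch, none of the 4 genes was called between the skin of sensitized and nonsensitized dogs. CD14 ran from 7.46 to 8.16 (median 7.72) in the sensitized dogs and from 7.34 to 8.04 (median 7.75) in the nonsensitized dogs. CD163 ran from 8.1 to 9.1 (median 8.53) and from 7.78 to 9.34 (median 8.5), in the same order. The ranges of the 2 groups overlapped for both genes. MRC1 ran from 8.41 to 8.94 (median 8.54) in sensitized and from 7.79 to 9.29 (median 8.58) in nonsensitized dogs. CHI3L1 ran from 6.91 to 7.76 (median 7.11) in sensitized and from 6.98 to 7.41 (median 7.13) in nonsensitized dogs. These ranges overlapped too, and the nonsensitized dogs spread more widely than the sensitized dogs in MRC1. Sensitized minus nonsensitized differences lay between −0.05 (CD163) and 0.10 (CHI3L1), each with an adjusted p = 1.0. The 95% confidence interval was −0.46 to 0.53 for CD14, −0.59 to 0.5 for CD163, −0.44 to 0.46 for MRC1 and −0.77 to 0.96 for CHI3L1. By limma, 0 of the 4 genes was called and 0 had an unadjusted p below 0.05, while 1 of all probes was called and 1544 had an unadjusted p below 0.05.

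Under the saline patch at 6 h, none of the 4 genes was called against untreated skin. In sensitized dogs CD14 ran from 7.69 to 8.27 (median 7.96) and in nonsensitized dogs from 7.78 to 8.51 (median 7.95). CD163 ran from 8.43 to 9.0 (median 8.62) in sensitized and from 7.88 to 9.55 (median 8.7) in nonsensitized dogs. Both genes overlapped their 0 h ranges in both groups of dogs. MRC1 ran from 8.37 to 9.24 (median 8.62) in sensitized and from 8.26 to 9.5 (median 8.99) in nonsensitized dogs. CHI3L1 ran from 6.88 to 7.19 (median 6.95) in sensitized and from 7.25 to 8.82 (median 7.4) in nonsensitized dogs. The highest CHI3L1 value belonged to the nonsensitized dog 2716, while the next of its group was 7.45. In the sensitized dogs the saline minus 0 h differences were 0.18 for CD14, 0.15 for CD163, 0.17 for MRC1 and −0.27 for CHI3L1, which was lower in 6 of 6 dogs (adjusted p = 0.731). In the nonsensitized dogs they were 0.33, 0.16, 0.38 and 0.46, with adjusted p from 0.281 to 0.749. Without dog 2716 the differences were 0.16 for CD14, 0.0 for CD163, 0.19 for MRC1 and 0.22 for CHI3L1. By limma, 0 of 4 genes was called in either group of dogs and 0 had an unadjusted p below 0.05. Of the 45972 probes, 12464 in sensitized and 11781 in nonsensitized dogs had an unadjusted p below 0.05. Of all probes, 0.196% were called higher and 2.45% lower in sensitized dogs, and 0.328% higher and 1.93% lower in nonsensitized dogs.

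At 6 h under the allergen patch, CD14 and CHI3L1 rose in sensitized dogs against the saline site, while CD163 and MRC1 were not called. In sensitized dogs CD14 ran from 8.31 to 9.75 (median 9.04) at the allergen site, and CHI3L1 ran from 7.96 to 10.14 (median 8.44). Every one of these sites was above every 6 h saline site of the sensitized dogs in both genes. CD163 ran from 8.32 to 9.16 (median 8.98) and MRC1 from 8.84 to 9.6 (median 9.32) at the same sites. Both overlapped their saline ranges. CD14 was higher by 1.12 ± 0.25 (SE; 2.17-fold, adjusted p = 0.0162) and CHI3L1 by 1.75 ± 0.43 (3.37-fold, adjusted p = 0.0385), each in 6 of 6 dogs. The difference was 0.20 for CD163 (5 of 6 dogs, adjusted p = 0.979) and 0.54 for MRC1 (5 of 6 dogs, adjusted p = 0.368). Thus 2 of 4 genes were called higher, against 0.402% of all probes. Leaving out dog 2838, 2853 or 2855 ended the CD14 call (0.97 to 1.22 over the dogs left out, adjusted p up to 0.287), and leaving out dog 2838, 2839, 2840, 2845, 2847, 2853 or 2855 ended the CHI3L1 call (1.45 to 1.91, adjusted p up to 0.468). A separate fit of the 6 h arrays ended both calls (adjusted p = 0.282 for CD14 and 0.33 for CHI3L1). The second probe of CD14 was not called (0.78, adjusted p = 0.0699). That of CHI3L1 was not called either, but it was well above background on 0 of 6 saline and 3 of 6 allergen arrays. Its missing call therefore does not test the CHI3L1 result. The CHI3L1 call also ended with no filter (1.86, adjusted p = 0.0501) and with normexp correction together with quantile scaling (1.46, adjusted p = 0.0629). Within the slides that held both kinds of site, CD14 differed by 0.92 (slide 5, 3 allergen and 3 saline arrays) and 1.77 (slide 6, 2 and 3 arrays), and CHI3L1 by 1.15 and 2.76.

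In nonsensitized dogs at 6 h none of the 4 genes was called for allergen against saline, and 2 of the 6 dogs stood above the others at the allergen site in CD14 and CHI3L1. CD14 ran from 7.99 to 10.37 (median 8.18) at the allergen site, and CHI3L1 ran from 7.16 to 11.45 (median 7.63). Dog 2704 had the highest value of both genes and dog 2716 the next (9.25 for CD14 and 9.91 for CHI3L1), while the other 4 dogs reached at most 8.34 and 7.78. CD163 ran from 8.13 to 9.11 (median 9.04) and MRC1 from 8.62 to 9.62 (median 9.2), which overlapped the saline ranges. The allergen minus saline difference was 0.61 for CD14 (5 of 6 dogs) and 0.93 for CHI3L1 (5 of 6 dogs), each with adjusted p = 0.906. These means rested largely on dog 2704, whose own differences were 2.51 and 4.02 beside medians over the 6 dogs of 0.33 and 0.31, and without it the fit gave 0.23 for CD14 and 0.31 for CHI3L1. The difference was 0.10 for CD163 and 0.24 for MRC1 (higher in 2 of 6 dogs each, adjusted p = 0.989 and 0.97), with −0.11 to 0.22 and 0.04 to 0.36 over the dogs left out. By limma 0 of 4 genes was called, against 0.0348% of all probes called higher. Unadjusted p was below 0.05 for 2 of 4 genes, beside 2512 of the 45972 probes.

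Whether the 6 h allergen response differed with sensitization was asked by the interaction, which subtracts the allergen minus saline difference in nonsensitized dogs from the one in sensitized dogs. It was 0.51 ± 0.35 for CD14, 0.10 ± 0.38 for CD163, 0.30 ± 0.31 for MRC1 and 0.82 ± 0.61 for CHI3L1, each with adjusted p = 1.0. Over the dogs left out it ran from 0.34 to 0.9 for CD14, −0.02 to 0.3 for CD163, 0.19 to 0.5 for MRC1 and 0.52 to 1.44 for CHI3L1, highest for CD14 and CHI3L1 without dog 2704, and the adjusted p stayed at 1.0. By limma 0 of 4 genes and 0 of all probes were called, while 0 of 4 genes and 525 of all probes had an unadjusted p below 0.05. A call in sensitized dogs and none in nonsensitized dogs at 6 h was therefore not shown to be a difference between them.

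Against untreated skin, the 6 h allergen site of sensitized dogs was higher in 3 of 4 genes, against 2.21% of all probes. CD14 was higher by 1.30 ± 0.25 (2.47-fold, adjusted p = 0.00035), MRC1 by 0.71 ± 0.22 (1.64-fold, adjusted p = 0.0205) and CHI3L1 by 1.48 ± 0.43 (2.79-fold, adjusted p = 0.0133), each in 6 of 6 dogs. CD163 differed by 0.35 (6 of 6 dogs, adjusted p = 0.393). In nonsensitized dogs 2 of 4 genes were higher, against 1.04% of all probes: CD14 by 0.93 ± 0.25 (1.91-fold, 5 of 6 dogs, adjusted p = 0.016) and CHI3L1 by 1.39 ± 0.43 (2.62-fold, 6 of 6 dogs, adjusted p = 0.0404). MRC1 differed by 0.62 (5 of 6 dogs, adjusted p = 0.0753) and CD163 by 0.26 (4 of 6 dogs, adjusted p = 0.608). With dog as a replicate block the MRC1 difference in nonsensitized dogs was called (0.62, adjusted p = 0.0179), as it was without dog 2802 (0.76, adjusted p = 0.034). Without dog 2704 the nonsensitized differences were 0.58 for CD14 (adjusted p = 0.193) and 0.78 for CHI3L1 (adjusted p = 0.352), neither of them called. The CD14 call also ended without dog 2716 and the CHI3L1 call without dog 2716, 2845 or 2853. In sensitized dogs the MRC1 call ended without dog 2839 or 2841 (0.67 to 0.77 over the dogs left out, adjusted p up to 0.0601), and the CHI3L1 call without dog 2838 or 2855 (1.13 to 1.7, adjusted p up to 0.0859). Untreated skin was on slides 6 to 8 and 6 h skin on slides 4 to 8, and with slide as a fixed block none of these 5 differences was called: 1.06 (adjusted p = 0.104) for CD14, 0.97 (adjusted p = 0.0655) for MRC1 and 1.2 (adjusted p = 0.378) for CHI3L1 in sensitized dogs, and 0.45 (adjusted p = 0.955) for CD14 and 1.13 (adjusted p = 0.872) for CHI3L1 in nonsensitized dogs. With scan session (the day of the scan in the file headers) as a fixed block, chosen after seeing the data, none of the 5 was called either. With slide as a random block the CHI3L1 calls ended in sensitized (1.36, adjusted p = 0.0632) and nonsensitized dogs (1.31, adjusted p = 0.257), as did the CD14 call in nonsensitized dogs (0.75, adjusted p = 0.26), and with all 60 arrays the nonsensitized CHI3L1 call ended (1.4, adjusted p = 0.0567).

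**Figure D1:**
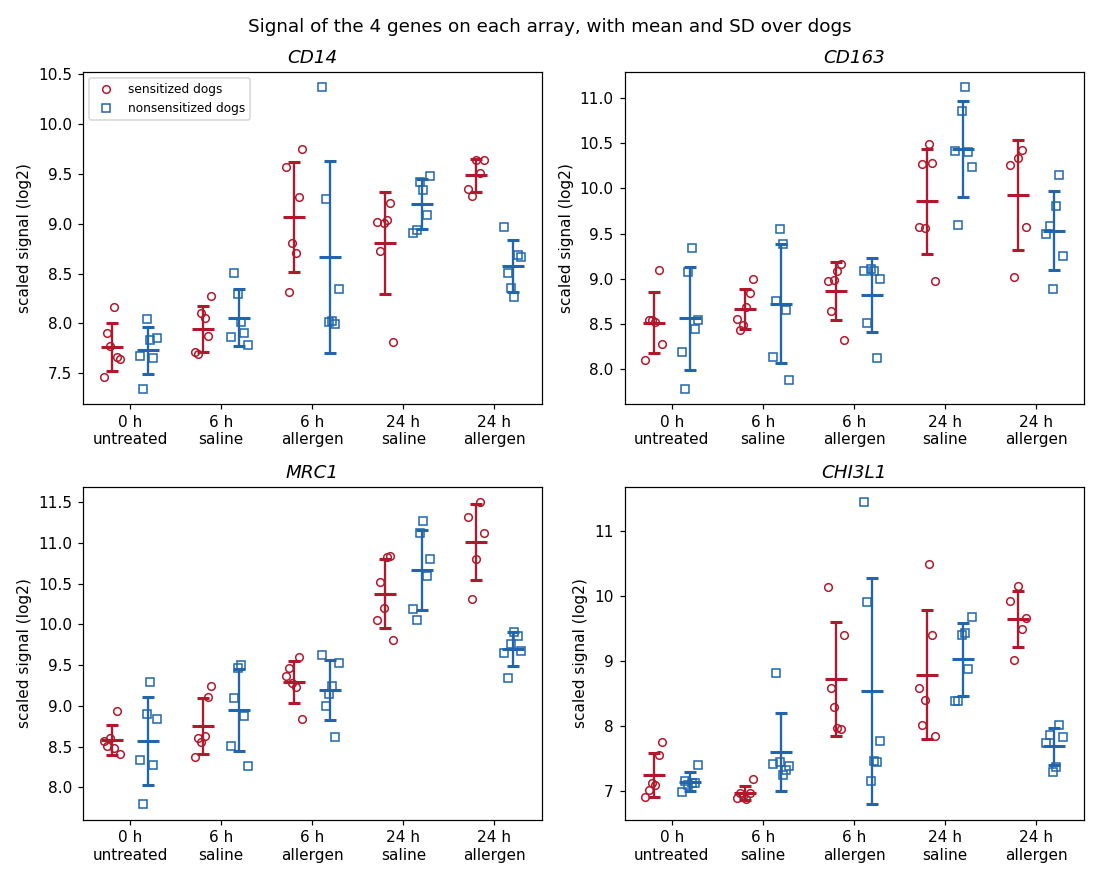
Scaled signal (log2) of CD14, CD163, MRC1 and CHI3L1 in each array (points), with the mean and SD of each group (bars), by site and time for sensitized and nonsensitized dogs. All 4 genes had higher means at 24 h saline sites than at 6 h saline sites in both groups of dogs, and at 24 h allergen sites the means of sensitized dogs were above those of nonsensitized dogs.

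Between 6 h and 24 h the saline sites changed in all 4 genes, in sensitized and in nonsensitized dogs, with no allergen in that patch. Each dog also carried an allergen patch. Biopsies of each patch area were taken at 6 h and again at 24 h, so every 24 h site, saline or allergen, followed earlier biopsies. Time under the patch and these earlier biopsies cannot be told apart. In sensitized dogs at 24 h, CD14 ran from 7.81 to 9.21 (median 9.01) and CD163 from 8.98 to 10.49 (median 9.92). MRC1 ran from 9.81 to 10.84 (median 10.36) and CHI3L1 from 7.85 to 10.5 (median 8.5). Dog 2855 had the lowest value of each of the 4 genes in this group. In MRC1 and CHI3L1 every 24 h saline site was above every 6 h saline site of the sensitized dogs. In nonsensitized dogs at 24 h, CD14 ran from 8.91 to 9.48 (median 9.22) and CD163 from 9.59 to 11.12 (median 10.4). MRC1 ran from 10.05 to 11.27 (mean 10.67) and CHI3L1 from 8.39 to 9.68 (median 9.14). CD14, CD163 and MRC1 were each above every 6 h saline site of the nonsensitized dogs, and CHI3L1 overlapped them through dog 2716 at 6 h.

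In sensitized dogs the 24 h minus 6 h saline difference was 0.85 ± 0.25 for CD14 (1.81-fold, 5 of 6 dogs, adjusted p = 0.0203) and 1.19 ± 0.27 for CD163 (2.28-fold, 5 of 6 dogs, adjusted p = 0.00327). It was 1.62 ± 0.22 for MRC1 (3.08-fold, 6 of 6 dogs, adjusted p = 3.76e-06) and 1.82 ± 0.43 for CHI3L1 (3.53-fold, 6 of 6 dogs, adjusted p = 0.00446). All 4 of 4 genes were called higher, against 1.66% of all probes. In nonsensitized dogs it was 1.14 ± 0.25 for CD14 (2.21-fold, 6 of 6 dogs, adjusted p = 0.00042) and 1.71 ± 0.27 for CD163 (3.27-fold, 6 of 6 dogs, adjusted p = 9.38e-06). It was 1.72 ± 0.22 for MRC1 (3.3-fold, 6 of 6 dogs, adjusted p = 2.98e-07) and 1.42 ± 0.43 for CHI3L1 (2.68-fold, 5 of 6 dogs, adjusted p = 0.00919), again 4 of 4 called, against 4.38% of all probes. Leaving out dog 2838, 2839, 2840, 2841 or 2853 ended the CD14 call in sensitized dogs (0.76 to 1.12 over the dogs left out, adjusted p up to 0.1), and leaving out dog 2847 ended the CHI3L1 call in nonsensitized dogs (1.25, adjusted p = 0.0544). In whole skin, more cells that hold these RNAs, macrophages or others, and more of these RNAs in each cell cannot be told apart.

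The 24 h arrays were on slides 1 to 3, apart from 1 sensitized allergen array on slide 8, and the 6 h arrays were on slides 4 to 8, so no slide held saline sites of both times and time and slide cannot be told apart within slides. Every 24 h minus 6 h value with slide as a fixed block therefore hangs on that 1 array, of dog 2840, and neither supports nor speaks against the calls. With slide as a fixed block none of the 8 saline differences was called: in sensitized dogs 0.88 for CD14 (adjusted p = 0.446), −0.48 for CD163 (adjusted p = 0.722), 0.36 for MRC1 (adjusted p = 0.756) and 1.64 for CHI3L1 (adjusted p = 0.418). In nonsensitized dogs the same block gave 1.23 for CD14 (adjusted p = 0.258), 0.55 for CD163 (adjusted p = 0.675), 0.85 for MRC1 (adjusted p = 0.355) and 1.32 for CHI3L1 (adjusted p = 0.544). Slide as a random block ended the calls of CD14 (0.89, adjusted p = 0.0728) and CD163 (0.94, adjusted p = 0.0738) in sensitized dogs, and the other 6 remained called. Slides were scanned in 3 sessions, and session 2 (slides 3 to 6) held both times. Within session 2 the sensitized difference (3 arrays at 24 h, 6 at 6 h) was 0.74 for CD14, 1.25 for CD163, 1.74 for MRC1 and 2.27 for CHI3L1. Within the same session the nonsensitized difference (1 array at 24 h, 6 at 6 h) was 1.29, 2.40, 2.32 and 1.83. With scan session as a fixed block all 8 differences remained called.

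At allergen sites the step from 6 h to 24 h was called for CD163 and MRC1 in sensitized dogs, and for CD163 alone of the 4 genes in nonsensitized dogs. In the 5 sensitized dogs 2838, 2840, 2841, 2853 and 2855, in that order, the 24 h allergen sites had CD14 at 9.35, 9.28, 9.64, 9.51 and 9.64. CD163 was at 10.26, 9.02, 10.34, 10.42 and 9.57 in the same dogs. The CD14 values lay close together, and the CD163 value of dog 2840 was low. MRC1 was at 11.32, 10.31, 10.8, 11.5 and 11.12, and CHI3L1 at 9.93, 9.02, 10.16, 9.5 and 9.66. Dog 2840, whose array was the 1 on slide 8, was lowest in all 4 genes, and every MRC1 value was above every 6 h allergen site of the sensitized dogs. In nonsensitized dogs CD14 ran from 8.26 to 8.97 (median 8.59) and CD163 from 8.89 to 10.15 (median 9.54). MRC1 ran from 9.34 to 9.91 (median 9.71) and CHI3L1 from 7.3 to 8.02 (median 7.78). All 4 genes overlapped their 6 h allergen ranges in these dogs.

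The 24 h minus 6 h allergen difference in sensitized dogs was 1.06 ± 0.29 for CD163 (2.08-fold, adjusted p = 0.017) and 1.71 ± 0.23 for MRC1 (3.28-fold, adjusted p = 6.84e-06), each higher in 5 of 5 dogs. It was 0.41 for CD14 (3 of 5 dogs, adjusted p = 0.375) and 0.93 for CHI3L1 (4 of 5 dogs, adjusted p = 0.219), so that 2 of 4 genes were called higher, against 1.47% of all probes. In nonsensitized dogs CD163 was higher by 0.71 ± 0.27 (1.63-fold, 5 of 6 dogs, adjusted p = 0.0444), 1 of 4 genes against 2.27% of all probes. MRC1 differed by 0.50 (6 of 6 dogs, adjusted p = 0.0844), CD14 by −0.09 (lower in 2 of 6 dogs, adjusted p = 0.828) and CHI3L1 by −0.85 (lower in 3 of 6 dogs, adjusted p = 0.136). Without dog 2704 the CHI3L1 difference was −0.28 (adjusted p = 0.671), and without dog 2839 the CD14 difference in sensitized dogs was 0.26. Leaving out any of dogs 2838, 2841 and 2853 ended the CD163 call in sensitized dogs (0.99 to 1.31 over the dogs left out, adjusted p up to 0.0762). The nonsensitized CD163 call ended without dog 2704, 2716, 2802, 2838, 2839 or 2845 (0.45 to 0.89, adjusted p up to 0.295). With slide as a fixed block the CD163 differences were −0.42 (adjusted p = 0.733) and −0.09 (adjusted p = 0.968) in sensitized and nonsensitized dogs, and that of MRC1 in sensitized dogs was 0.56 (adjusted p = 0.525), values that again hang on the 1 array of dog 2840. Within scan session 2 the sensitized difference (3 arrays against 5) was 1.17 for CD163 and 2.05 for MRC1, and the nonsensitized CD163 difference (1 array against 4) was 1.10. Within session 3 the sensitized difference (1 array against 1) was 0.38 for CD163 and 0.85 for MRC1. With scan session as a fixed block the nonsensitized CD163 call ended (0.84, adjusted p = 0.359), while the sensitized CD163 and MRC1 differences remained called. Slide as a random block ended the CD163 calls in sensitized (0.8, adjusted p = 0.133) and nonsensitized dogs (0.83, adjusted p = 0.0755), and with all 60 arrays the nonsensitized CD163 call ended (0.71, adjusted p = 0.0631).

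At 24 h the mean of each of the 4 genes was higher at allergen than at saline sites in sensitized dogs, and lower in nonsensitized dogs, where MRC1 was called. In sensitized dogs the allergen minus saline difference was 0.68 for CD14 (5 of 5 dogs, adjusted p = 0.266), 0.06 for CD163 (3 of 5 dogs, adjusted p = 0.987), 0.63 for MRC1 (4 of 5 dogs, adjusted p = 0.246) and 0.86 for CHI3L1 (4 of 5 dogs, adjusted p = 0.486). Dog 2855, with the low saline site, had a CD14 difference of 1.83 beside a median of 0.34 over the 5 dogs, and without it the fit gave 0.44 for CD14 (adjusted p = 0.753). CD163 ran from −0.08 to 0.23 over the dogs left out. By limma 0 of 4 genes was called, against 0.174% of all probes called higher. Unadjusted p was below 0.05 for 2 of 4 genes, beside 5146 of the 45972 probes. Every CD14 value at an allergen site was above every CD14 value at a saline site, and the other 3 genes overlapped. With all 60 arrays the MRC1 difference was called (0.75, adjusted p = 0.045), but the added array is the dim one of specimen 14 with RNA of low integrity, and its MRC1 was above the 5 others of its group.

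In nonsensitized dogs MRC1 was lower at 24 h allergen than at saline sites by a log2 difference of −0.97 ± 0.22 (1.96-fold, lower in 6 of 6 dogs, adjusted p = 0.0108), and no allergen site reached the lowest saline site. Thus 1 of 4 genes was called lower, against 0.659% of all probes. The difference was −0.62 for CD14 (lower in 5 of 6 dogs, adjusted p = 0.247), −0.91 for CD163 (6 of 6 dogs, adjusted p = 0.0769) and −1.34 for CHI3L1 (6 of 6 dogs, adjusted p = 0.107). With dog as a replicate block the CD163 difference was called (−0.91, adjusted p = 0.0121), as it was without dog 2716 (−1.08, adjusted p = 0.0356). Without dog 2704 CHI3L1 was called (adjusted p = 0.0381). The MRC1 call ended without dog 2800 or 2802 (−0.90 each, adjusted p up to 0.0916). Within slides 1 (4 allergen and 3 saline arrays), 2 (1 and 2) and 3 (1 and 1) the MRC1 difference was −0.83, −1.0 and −1.36.

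**Figure D2:**
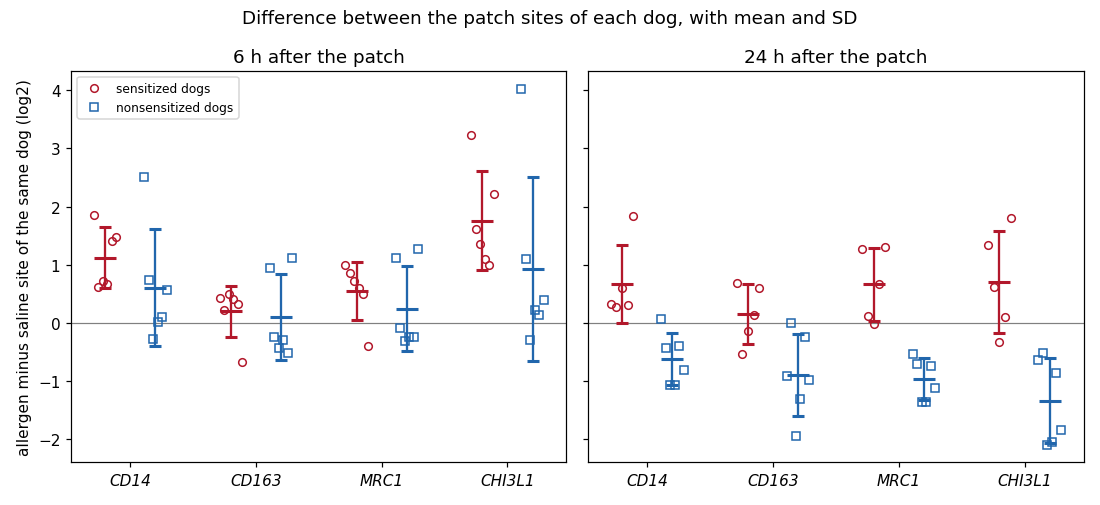
Allergen minus saline difference (log2) of CD14, CD163, MRC1 and CHI3L1 within each dog (points) at 6 h and at 24 h, with the mean and SD of sensitized and nonsensitized dogs (bars). At 24 h the differences of the sensitized dogs were all above those of the nonsensitized dogs in CD14, MRC1 and CHI3L1, and the 2 groups overlapped in CD163.

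The 24 h interaction, the size by which the allergen response of the sensitized dogs exceeded that of the nonsensitized dogs, was positive for the 4 genes and called for MRC1. The study drew up its list of genes by this same contrast on these arrays, and CD14, MRC1 and CHI3L1 are in that list while CD163 is not, so that for those 3 genes the values of the 24 h patch comparisons are a description and not independent evidence. Within dogs the MRC1 allergen minus saline differences ran from −0.03 to 1.31 in sensitized and from −1.37 to −0.54 in nonsensitized dogs. Those of CD14 ran from 0.27 to 1.83 and from −1.09 to 0.06, and those of CHI3L1 from −0.34 to 1.81 and from −2.11 to −0.52. The 2 groups of dogs did not overlap in these 3 genes, and the share of all probes without overlap is not given. Those of CD163 ran from −0.54 to 0.69 and from −1.96 to −0.01, and they overlapped. The interaction was 1.61 ± 0.32 for MRC1 (3.05-fold, adjusted p = 0.009), with a 95% confidence interval of 0.96 to 2.26, and 1 of 4 genes was called higher, against 0.598% of all probes. It was 1.30 ± 0.36 for CD14 (adjusted p = 0.0511; interval 0.58 to 2.02), 2.21 ± 0.62 for CHI3L1 (adjusted p = 0.0588; interval 0.95 to 3.46) and 0.97 ± 0.39 for CD163 (adjusted p = 0.216; interval 0.18 to 1.76).

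CD14 and CHI3L1 lay near the limit of the 24 h interaction, and several settings moved them past it. With dog as a replicate block the interaction was 1.25 for CD14 and 2.15 for CHI3L1 (adjusted p = 0.0309 each). The second probe of CD14 was called as well (1.11, adjusted p = 0.0495). Without dog 2704 the interaction of CD14 was 1.44 (adjusted p = 0.0074), and that of CHI3L1 was called without dog 2704, 2716 or 2841 (2.02 to 2.42 over the dogs left out, adjusted p from 0.0133). Over the dogs left out, the adjusted p reached 0.236 for CD14 and 0.235 for CHI3L1. The MRC1 call ended when dog 2855 was left out (1.47, adjusted p = 0.0644). Slides 2 and 3 held all 4 groups of the 24 h interaction, and within them it was 1.44 and 2.18 for MRC1, 0.96 and 1.90 for CD14, 1.55 and 1.48 for CD163, and 3.11 and 2.51 for CHI3L1. Slide 2 held 1 allergen and 2 saline arrays in each group of dogs, and slide 3 held 3 and 3 of sensitized and 1 and 1 of nonsensitized dogs, so these values rest partly on single arrays.

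Sensitized and nonsensitized dogs differed at 24 h allergen sites in CD14, MRC1 and CHI3L1, and none of the 4 genes was called between their saline sites. At allergen sites CD14 was higher in sensitized dogs by 0.91 ± 0.26 (1.87-fold, adjusted p = 0.00985), MRC1 by 1.31 ± 0.23 (2.48-fold, adjusted p = 9.75e-05) and CHI3L1 by 1.97 ± 0.45 (3.91-fold, adjusted p = 0.00158). In each of these 3 genes every sensitized dog was above every nonsensitized dog. The share of all probes that separate in this way is not given. By limma 16934 of the 45972 probes had an unadjusted p below 0.05 in this comparison. CD163 differed by 0.39 (0.26 to 0.62 over the dogs left out, adjusted p = 0.326) and its ranges overlapped. Thus 3 of 4 genes were called higher, against 3.54% of all probes. These 3 are the ones in the study's list, which was drawn up with the same 24 h allergen arrays, and CD163 outside it was not called, so this count is a description as well. At saline sites sensitized minus nonsensitized differences were −0.39 for CD14 (adjusted p = 0.358), −0.58 for CD163 (adjusted p = 0.198), −0.30 for MRC1 (adjusted p = 0.462) and −0.24 for CHI3L1 (adjusted p = 0.798), and the ranges overlapped. Over the dogs left out they ran from −0.48 to −0.2 for CD14, −0.75 to −0.4 for CD163, −0.42 to −0.18 for MRC1 and −0.58 to −0.05 for CHI3L1. By limma 0 of 4 genes was called at saline sites, against 0.566% of all probes called lower and 1.81% called higher. Unadjusted p was below 0.05 for 1 of 4 genes there, beside 10066 of the 45972 probes. The saline sites take part in the 24 h interaction together with the allergen sites.

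Ordered by group mean, CD14 ran from nonsensitized 0 h (7.73 ± 0.24, SD, n = 6), through sensitized 0 h, sensitized 6 h saline, nonsensitized 6 h saline, nonsensitized 24 h allergen, nonsensitized 6 h allergen, sensitized 24 h saline, sensitized 6 h allergen and nonsensitized 24 h saline, to sensitized 24 h allergen (9.48 ± 0.17, n = 5). The step to the next group exceeded the larger SD of the pair only above nonsensitized 6 h saline (0.52) and above nonsensitized 24 h saline (0.28), and the ranges of all neighbours overlapped. CD163 ran from sensitized 0 h (8.52 ± 0.34, n = 6), through nonsensitized 0 h, sensitized 6 h saline, nonsensitized 6 h saline, nonsensitized 6 h allergen, sensitized 6 h allergen, nonsensitized 24 h allergen, sensitized 24 h saline and sensitized 24 h allergen, to nonsensitized 24 h saline (10.44 ± 0.53, n = 6). Its 1 step beyond the larger SD was between the 6 h and the 24 h groups, above sensitized 6 h allergen (0.67).

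MRC1 ran from nonsensitized 0 h (8.57 ± 0.54, n = 6), through sensitized 0 h, sensitized 6 h saline, nonsensitized 6 h saline, nonsensitized 6 h allergen, sensitized 6 h allergen, nonsensitized 24 h allergen, sensitized 24 h saline and nonsensitized 24 h saline, to sensitized 24 h allergen (11.01 ± 0.47, n = 5). Its steps beyond the larger SD were below and above nonsensitized 24 h allergen (0.4 and 0.68). CHI3L1 ran from sensitized 6 h saline (6.97 ± 0.11, n = 6), through nonsensitized 0 h, sensitized 0 h, nonsensitized 6 h saline, nonsensitized 24 h allergen, nonsensitized 6 h allergen, sensitized 6 h allergen, sensitized 24 h saline and nonsensitized 24 h saline, to sensitized 24 h allergen (9.66 ± 0.43, n = 5). Its steps beyond the larger SD were above sensitized 6 h saline (0.18) and above nonsensitized 24 h saline (0.63). The remaining neighbours of CD163, MRC1 and CHI3L1 did not differ beyond their spread.

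By their brightest probes the 4 genes fell into 2 pairs over the 59 arrays, given here as a description over arrays that share dogs and groups. CD163 and MRC1 had Pearson r = 0.91 (Spearman rho = 0.90), and r = 0.84 after the mean of each group was taken off. CD14 and CHI3L1 had r = 0.89 (rho = 0.85), and r = 0.79 within groups. Across the pairs r lay between 0.55 (CD163 and CHI3L1) and 0.75 (CD14 and MRC1), and within groups between 0.22 and 0.36 for the same 2 combinations. By the second CD14 probe the pairs were less apart, with r = 0.83 for MRC1 and 0.87 for CHI3L1 over the arrays, and 0.43 and 0.74 within groups. CD14 and CHI3L1 were the genes called at 6 h allergen against saline in sensitized dogs, and CD163 and MRC1 those called between 6 h and 24 h at their allergen sites.

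CD14, CD163 and CHI3L1 had a second probe each. The CD14 probes (second identifier EU263365.1) had r = 0.97 and the CD163 probes r = 0.98. The CHI3L1 probes had r = 0.87, and the second of them (NM_001177807) was dim: it was well above background on 0 of the 0 h arrays and 0 of the 6 h saline arrays, and it passed the filter through the nonsensitized 24 h saline group alone (5 of 6 arrays). Since it had to be high in that group to be tested, its differences that use the group are not independent support. Against the floor it was at least 1.35-fold higher in sensitized dogs at 24 h than at 6 h under saline. At 6 h allergen against saline in sensitized dogs the second probe of CD14 was not called (0.78, adjusted p = 0.0699). That of CHI3L1 was well above background on 3 of 6 allergen and 0 of 6 saline arrays, which gives at least 1.04-fold, and was not called either (adjusted p = 0.509). The 11 spots of the CD163 probe had SDs of 0.03 to 0.09 within an array (median 0.05), while the SD between dogs of a group was 0.22 to 0.66 (median 0.48).

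For each gene, the 5 named genes with the most similar course over the 59 arrays were listed by Pearson r, without a test, and all of them are in the study's list. That list also gave the names of 407 of the genes that could be named, so its genes are over-represented among those that could appear here. Those of CD14 were TIMP1, an inhibitor of matrix proteases (0.93), C19orf59 (0.92), SERPINA3, an acute phase protease inhibitor (0.92), UGDH, an enzyme of sugar nucleotide synthesis (0.91), and LILRB2, an inhibitory receptor of myeloid cells (0.91). CHI3L1 shared SERPINA3 (0.94) and TIMP1 (0.92) with CD14, and was followed by TFPI2, a protease inhibitor (0.91), IL18BP, which binds interleukin-18 (0.9), and CEBPD, a transcription factor (0.89). CD163 came with CD209, a lectin of macrophages and dendritic cells (0.91), C1RL (0.89), LMO2 (0.86), TGFBR2, a receptor of transforming growth factor beta (0.86), and LTBP1, which binds its latent form (0.86). MRC1 shared CD209 (0.93) with CD163, beside EMILIN1, a protein of elastic fibres (0.93), HCLS1, a protein of the blood cell cytoskeleton (0.92), CLIC2 (0.9) and CD33, a sialic acid receptor of myeloid cells (0.9).

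Other monocyte and macrophage genes were measured through 9 of 30 listed genes. Here and below, a gene counts as measured when a probe named for it passed the filter on dim probes. Between 6 h and 24 h under saline, 5 of 9 were called higher in sensitized dogs and 5 of 9 in nonsensitized dogs, against 1.66% and 4.38% of all probes, with medians of 0.82 and 0.94 beside −0.0 over all probes in each. The 5 were the same in both groups of dogs: AIF1, FCGR1A, MS4A7, SLC11A1 and CD86, of which AIF1 and MS4A7 are in the study's list. AIF1, which bundles actin in macrophages, rose by 1.07 ± 0.24 (adjusted p = 0.00293) in sensitized dogs, and FCGR1A, a high-affinity receptor for IgG, by 2.52 ± 0.45 (adjusted p = 0.000232), both chosen for naming after their values were seen. As for the 4 genes, 6 h to 24 h calls of this and later lists compare different slides, apart from the 1 array on slide 8, and follow earlier biopsies. Calls of 6 h against 0 h in later lists and cell type markers also compare groups that lay in part or wholly on different slides. No value with slide as a block is given for the lists. In the 24 h interaction 1 of 9 was called, against 0.598% of all probes: MS4A7, a membrane protein of macrophages (1.35 ± 0.29, adjusted p = 0.0138). Of the 7 outside the study's list 0 was called, and the median of the 9 was 0.94 beside −0.0 over all probes. At 24 h in nonsensitized dogs 3 of 9 were lower at allergen than at saline sites, against 0.659% of all probes: FCGR1A (−1.79, adjusted p = 0.0239), MS4A7 (−1.58, adjusted p = 2.4e-06) and SLC11A1, a metal transporter of phagosomes (−1.17, adjusted p = 0.0422). In sensitized dogs limma called 0 of 9 for allergen against saline at 6 h and 0 of 9 at 24 h, against 0.402% and 0.174% of all probes called higher. Unadjusted p was below 0.05 for 7 and 5 of the 9, beside 4375 and 5146 of the 45972 probes. At 24 h allergen sites 4 of 9 were higher in sensitized than in nonsensitized dogs, against 3.54% of all probes: FCGR1A, TYROBP, FCER1G and MS4A7. The median of the 9 was 0.51 there, beside 0.02 over all probes.

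Of the LPS receptor pathway around CD14, 7 of 22 listed genes were measured. IL6, a cytokine induced through that pathway, was the 1 of 7 called in the 24 h interaction (adjusted p = 0.0408), against 0.598% of all probes. It is in the study's list, and was well above background on 1 of 6 nonsensitized 24 h allergen arrays, so the size of its difference is not exact and is not given. The median of the 7 was 0.81, and 0 of the 5 outside the study's list was called. Between 6 h and 24 h under saline 3 of 7 were called higher in each group of dogs, TLR2, TLR1 and IL6, against 1.66% of all probes in sensitized and 4.38% in nonsensitized dogs. At 6 h saline IL6 was well above background on 0 of 6 sensitized and 1 of 6 nonsensitized arrays. The median of the 7 was 0.69 in sensitized and 0.65 in nonsensitized dogs, beside −0.0 over all probes in each, and TLR2 rose by 0.69 ± 0.19 (adjusted p = 0.0135) in sensitized and 0.82 ± 0.19 (adjusted p = 0.000737) in nonsensitized dogs. Of the haemoglobin and haem genes around CD163, 4 of 14 were measured, none in the study's list, and limma called 0 of 4 in the 24 h interaction, with 0 at an unadjusted p below 0.05 and a median of 0.19. Of the 45972 probes, 6515 had an unadjusted p below 0.05 in that interaction. HMOX1, the enzyme that breaks down haem, was the 1 of 4 called between 6 h and 24 h under saline, in nonsensitized dogs (1.32 ± 0.35, adjusted p = 0.00286), against 4.38% of all probes. In sensitized dogs 0 of 4 was called there, against 1.66% of all probes called higher. Unadjusted p was below 0.05 for 1 of 4, beside 10957 of the 45972 probes. At 24 h saline sites HMOX1 was the 1 of 4 called lower in sensitized than in nonsensitized dogs, against 0.566% of all probes (median −0.16).

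Among lectins related to MRC1, 2 of 17 were measured, both in the study's list. CD209 was the 1 of 2 called in the 24 h interaction (1.29 ± 0.34, adjusted p = 0.041), against 0.598% of all probes. It was also the 1 of 2 called higher between 6 h and 24 h under saline in sensitized (1.04 ± 0.24, adjusted p = 0.00299) and nonsensitized dogs (1.16 ± 0.24, adjusted p = 0.000202). These saline calls stand against 1.66% and 4.38% of all probes, with medians of the 2 lectins of 0.6 and 0.75. Of the chitinase family and partners of CHI3L1, 4 of 13 were measured. IL13RA2, a decoy receptor for interleukin-13 that also binds CHI3L1 protein, was the 1 of 4 called in the 24 h interaction (2.22 ± 0.36, adjusted p = 0.00141), against 0.598% of all probes, and is in the study's list, while 0 of the 2 outside that list was called. The median of the 4 was 0.48. At 24 h allergen against saline sites IL13RA2 was the 1 of 4 higher in sensitized dogs (1.02 ± 0.26, adjusted p = 0.0444), against 0.174% of all probes. In nonsensitized dogs 2 of 4 were lower, IL13RA2 (−1.19 ± 0.25, adjusted p = 0.00375) and STAT3 (−0.66 ± 0.13, adjusted p = 0.00222), against 0.659% of all probes. No chitinase was among the 4 genes measured.

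Genes of macrophage recruitment and growth were measured through 10 of 17, and the 3 called in the 24 h interaction were monocyte-attracting chemokines of the study's list: CCL2 (2.36 ± 0.60, adjusted p = 0.0361), CCL8 (2.46 ± 0.61, adjusted p = 0.0288) and CCL13 (1.42 ± 0.33, adjusted p = 0.0205). The 3 of 10 stand against 0.598% of all probes, the median of the 10 was 1.2 beside −0.0 over all probes, and 0 of the 4 outside the study's list was called. The same 3 chemokines were called at 6 h allergen against saline in sensitized dogs, CCL2 by 2.85 ± 0.42 (adjusted p = 5.95e-05), CCL8 by 2.89 ± 0.42 (adjusted p = 5.95e-05) and CCL13 by 1.12 ± 0.23 (adjusted p = 0.00794), and were lower at 24 h allergen than saline sites in nonsensitized dogs. In these comparisons 0.402% of all probes were called higher and 0.659% lower, with list medians of 0.93 and −0.56. The 3 were also higher at 6 h saline than at 0 h in nonsensitized dogs, against 0.328% of all probes (median 0.77). No slide and no scan session held both of these groups, so that step and slide cannot be told apart. At 6 h allergen against 0 h, 6 of 10 were higher in sensitized and 6 of 10 in nonsensitized dogs, against 2.21% and 1.04% (medians 1.51 and 1.25). At 24 h allergen sites 8 of 10 were higher in sensitized than in nonsensitized dogs, against 3.54% (median 1.01). Genes of alternative activation were measured through 5 of 16, with 1 called in the 24 h interaction, the transcription factor IRF4 of the study's list (1.16 ± 0.31, adjusted p = 0.0427), against 0.598% of all probes, and 0 of the 4 outside it, with a median of 1.16. In sensitized dogs at 24 h 2 of 5 were higher at allergen than saline sites, against 0.174% of all probes: IRF4 (0.90 ± 0.22, adjusted p = 0.0414) and CCL17, a chemokine for T cells (2.87 ± 0.65, adjusted p = 0.0211).

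Among genes listed as markers of neutrophils, S100A8 moved with some of the same groups, and the other 4 measured were called in none of the 17 comparisons. Of 11 neutrophil markers 5 were measured, S100A8, CXCR2, ELANE, MMP9 and CAMP. S100A8 rose in sensitized dogs by 2.48 ± 0.66 at 6 h allergen against 0 h (adjusted p = 0.0071), by 2.17 ± 0.66 from 6 h to 24 h under saline (adjusted p = 0.027) and by 2.33 ± 0.69 from 6 h to 24 h under allergen (adjusted p = 0.0295). It was 1 of 5 in each, against 2.21%, 1.66% and 1.47% of all probes, and the medians of the 5 markers were 0.01, 0.28 and 0.11. S100A8 was also called from 6 h to 24 h under saline in nonsensitized dogs (1.8 ± 0.66, adjusted p = 0.0309) and between sensitized and nonsensitized dogs at 24 h allergen sites (2.56 ± 0.69, adjusted p = 0.00639), 1 of 5 against 4.38% and 3.54% of all probes, where the medians of the 5 were 0.15 and 0.32. In the 24 h interaction limma called 0 of 5, against 0.598% of all probes, with a median of 0.07 and unadjusted p below 0.05 for S100A8 (2.83 ± 0.95, adjusted p = 0.118) and MMP9 (1.53 ± 0.59, adjusted p = 0.188). Of the 45972 probes, 6515 had an unadjusted p below 0.05 there. The group means of CAMP ran from 6.36 to 6.85. S100A9, S100A12, MPO and CSF3R were among those not measured. Sums of signal follow the brightest probe of a list and give no order of abundance between genes, and the sum of the 5 followed S100A8, which ran from 16.65 to 17.73 at sensitized 24 h allergen sites. That sum is therefore a reading of S100A8 and does not measure neutrophil number. The summed signal of the 5 (log2) in sensitized dogs ran from 11.85 to 14.04 at 0 h, 12.05 to 14.24 at 6 h saline, 13.68 to 16.42 at 6 h allergen, 14.24 to 15.77 at 24 h saline and 16.67 to 17.74 at 24 h allergen. In nonsensitized dogs it ran from 11.57 to 15.31, 12.3 to 16.1, 11.79 to 17.04, 13.98 to 16.5 and 13.58 to 16.46 at the same sites. The sensitized 24 h allergen sites were above all 24 h sites of the nonsensitized dogs. Of 8 listed macrophage markers AIF1 and CYBB were measured, and CD68, CSF1R, MSR1 and the C1Q genes were not. The sum of AIF1 and CYBB, which does not measure macrophage number, ran in sensitized dogs from 9.92 to 10.58 at 0 h, 9.7 to 11.21 at 6 h saline, 10.06 to 11.93 at 6 h allergen, 10.38 to 11.4 at 24 h saline and 11.13 to 12.44 at 24 h allergen. In nonsensitized dogs it ran from 9.65 to 10.6, 10.1 to 10.99, 10.2 to 11.64, 10.97 to 11.93 and 10.75 to 11.7. The part of neutrophils or of macrophage number in the results of the 4 genes was not tested.

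Markers of mast cells, T cells and keratinocytes were also called in comparisons where the 4 genes were. HDC, the histamine-forming enzyme of mast cells, was higher from 6 h to 24 h under saline in sensitized (1.13 ± 0.23, adjusted p = 0.001) and nonsensitized dogs (1.2 ± 0.23, adjusted p = 8.76e-05). It was higher at 6 h allergen than at 0 h in sensitized (1.22 ± 0.23, adjusted p = 0.000294) and nonsensitized dogs (0.73 ± 0.23, adjusted p = 0.042), and than at 6 h saline in sensitized dogs (0.98 ± 0.23, adjusted p = 0.0235). At 24 h HDC was lower at allergen than saline sites in nonsensitized dogs (−1.32 ± 0.23, adjusted p = 0.000406) and higher at allergen sites of sensitized than of nonsensitized dogs (0.8 ± 0.24, adjusted p = 0.0131). MS4A2, a chain of the IgE receptor, was the other of 5 mast cell markers called, from 6 h to 24 h under saline in nonsensitized dogs (0.94 ± 0.27, adjusted p = 0.00537). From 6 h to 24 h under saline, 1 of 5 mast cell markers in sensitized and 2 of 5 in nonsensitized dogs thus stand against 1.66% and 4.38% of all probes, with list medians of 0.48 and 0.64. The 1 of 5 at 6 h allergen against 0 h stands against 2.21% in sensitized and 1.04% in nonsensitized dogs (medians 0.33 and 0.43), and against saline in sensitized dogs against 0.402% (median 0.16). At 24 h the 1 of 5 lower in nonsensitized dogs stands against 0.659% (median −0.48), and the 1 of 5 higher between the groups of dogs against 3.54% (median 0.43).

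Of the T cell markers, CD28 was called higher from 6 h to 24 h under saline in nonsensitized dogs, where 0 of 6 arrays at 6 h had it well above background, and at 24 h allergen against saline in sensitized dogs (0.74 ± 0.14, adjusted p = 0.00288). CD28 (adjusted p = 0.000776) and LCK (0.81 ± 0.15, adjusted p = 0.000738) rose from 6 h to 24 h under allergen in sensitized dogs, with CD28 well above background on 2 of 6 arrays at 6 h, and LCK was higher at 24 h allergen sites of sensitized than of nonsensitized dogs (0.69 ± 0.15, adjusted p = 0.00103). These are 1 of 4 T cell markers against 4.38% of all probes (median 0.05), 1 of 4 against 0.174% (median 0.34), 2 of 4 against 1.47% (median 0.47) and 1 of 4 against 3.54% (median 0.51), in that order. KRT15 of keratinocytes was lower from 6 h to 24 h under saline in sensitized (−0.68 ± 0.15, adjusted p = 0.00249) and nonsensitized dogs (−0.71 ± 0.15, adjusted p = 0.000346), and under allergen in sensitized dogs (−0.79 ± 0.16, adjusted p = 0.00136). At 24 h allergen sites it was lower in sensitized than in nonsensitized dogs (−0.82 ± 0.16, adjusted p = 0.000254). It was the 1 of 4 keratinocyte markers called in each of these 4 comparisons, in which 426, 2382, 269 and 1648 of the 45972 probes were called lower and the medians of the 4 were −0.28, −0.43, −0.3 and −0.53. The eosinophil marker CCR3 was called higher at 24 h allergen sites of sensitized dogs than of nonsensitized dogs (adjusted p = 0.0439), but it was well above background on 1 of 6 nonsensitized arrays and passed the filter through the sensitized 24 h allergen group alone, so this is no independent result and its size is not given. In addition CD4 was called lower at 6 h saline than at 0 h in both groups of dogs, 1 of 4 T cell markers against 2.45% and 1.93% of all probes (medians −0.03 and −0.13), and KDR, 1 of 2 of endothelium, higher at 6 h allergen than at 0 h in sensitized dogs, against 2.21% (median 0.14). HDC, MS4A2, CD28, LCK and KRT15 are in the study's list.

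The summed signal of mast cell markers (5 of 7 measured, FCER1A the brightest probe) had group medians from 11.27 to 12.4, and that of T cell markers (4 of 9, CD4 the brightest) from 7.98 to 8.6. Keratinocyte markers (4 of 9, KRT1 the brightest) had medians from 16.96 to 17.5, fibroblast markers (3 of 7, COL1A2 the brightest) from 18.29 to 18.86, and endothelial markers (2 of 6, VWF the brightest) from 14.42 to 15.41, and these sums do not show the calls of dimmer probes. Eosinophils were represented by CCR3 (1 of 5, medians 4.4 to 5.18) and dendritic cells by FLT3 (1 of 10, medians 5.54 to 6.56). Of 5 B cell markers 1 could be named on the array, and it did not pass the filter on dim probes. In the 24 h interaction HDC (1.5, adjusted p = 0.0154) and CD28 (0.96, adjusted p = 0.00801) were called higher and DSP, a desmosome protein of keratinocytes, lower (−0.62, adjusted p = 0.041), while 0 of 4 of the macrophage genes under study was lower, against 0.598% of all probes called higher and 0.337% lower. The list medians were 1.02 for mast cells, 0.44 for T cells and −0.61 for keratinocytes. All 3 are in the study's list, and the part of these cell types in the results of the 4 genes was not tested.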

How the data were processed

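RNA of dog skin biopsies was measured on one-colour Agilent canine arrays. The authors deposited Feature Extraction 10.7.3.1 output with 1 intensity per spot, the background-subtracted processed signal, not scaled between arrays; 2 of the 60 files were plain tables with rounded values and no header. Non-control spots (61657, of 60068 probes) were kept when 5 or more arrays within any 1 group had them marked well above background (47229 spots, 45972 probes), and spots marked as outliers were set missing (11 values among the 17 spots of the 4 genes). Signals were scaled by a variance-stabilizing transformation, written anew in Python and tested on simulated data, and replicate spots of a probe were then averaged.

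One limma fit of the 10 group means over 59 arrays, unpaired, gave every comparison, with Benjamini-Hochberg adjustment over all 45972 probes and a call at an adjusted p below 0.05 and at least 1.5-fold. Specimen 14 was left out, as in the study's methods. Deviations from group means correlated between arrays of the same dog (median r = 0.39, 116 pairs) and not between dogs (−0.03, 1450 pairs), so that dog was also used as a replicate block.

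Genes were named through identifiers in the RefSeq gene table of assembly UU_Cfam_GSD_1.0 (1694 identifiers) or the study's list (617 identifiers). The rule for naming took the 4 genes, the 5 named genes with the highest Pearson r with each, and from each list the genes called in the 24 h interaction, or the 4 largest where there were more; other names were chosen after their values were seen. The genes and lists were chosen with earlier results of these data known.

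The alternatives were scaling by the 75th percentile or by quantiles, normexp background correction (offset 50) together with quantile scaling, no filter and a stricter filter (every array of a group), all 60 arrays, a separate fit per time point, dog as a block, slide as a random or fixed block or within slides, other probes of a gene, and each dog left out. Scan session as a fixed block, and differences within scan sessions, were chosen after seeing the data. Tools were R 4.3.3, limma 3.58.1, statmod 1.5.0, matplotlib 3.10.9, scipy 1.17.1, pandas 2.3.3, numpy 2.4.6 and Python 3.11.15.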

Additional observations from a re-analysis of the deposited data

Results flagged for a closer look

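In 4 of the 40 groups of arrays tested (4 genes in 10 groups), 1 array lay far from the others of its group, where chance gives about 1 in 20 groups. CD14 at the sensitized 24 h saline site of dog 2855 was 7.81, and the next value of the group was 8.73. MRC1 in the untreated skin of the sensitized dog 2853 was 8.94, and the next was 8.6. CHI3L1 at the sensitized 6 h saline site of dog 2855 was 7.19, and the next was 6.97. CHI3L1 at the nonsensitized 6 h saline site of dog 2716 was 8.82, and the next was 7.45. MRC1 differed between sensitized and nonsensitized dogs in its response to allergen at 24 h, with an interaction of 1.61 (adjusted p = 0.009 by limma).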

How the results depend on the processing

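Over 68 results (4 genes in 17 comparisons, 23 of them called), 837 values under other settings kept their side of the limits, or moved by less than 1 SD where no test was run, and 28 of these, all short of the limits, had the other sign. Another 48 values moved further, 20 gained a call, 35 lost it and 3 changed sign. These counts are of values and not of independent settings, since the 24 h arrays of session 2 are those of slide 3 and comparisons among 24 h sites appear under both. With 1 dog left out, 771 values kept their side (18 of them short of the limits and of the other sign), 7 gained and 38 lost a call. Scaling by the 75th percentile or by quantiles changed none of the 68. The cause was not tested for any change given here. All signals of the brightest probes were well above background, so background limits only the second CHI3L1 probe.

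With slide as a fixed block, CD163 changed sign in 24 h saline minus 6 h saline in sensitized dogs (−0.48) and in 24 h allergen minus 6 h allergen in sensitized (−0.42) and nonsensitized dogs (−0.09). These and all other 24 h minus 6 h values of this block hang on the 1 array of dog 2840 on slide 8, the only slide with both times, so they do not test the calls. The 24 h minus 6 h saline calls ended for CD14 (0.88 in sensitized, 1.23 in nonsensitized), CD163 (0.55 in nonsensitized), MRC1 (0.36, 0.85) and CHI3L1 (1.64, 1.32), as did that of MRC1 in 24 h minus 6 h allergen in sensitized dogs (0.56). Calls of 6 h allergen minus 0 h ended for CD14 (1.06, 0.45), MRC1 in sensitized dogs (0.97) and CHI3L1 (1.2, 1.13). The 24 h interaction gained a call for CD14 (1.38) and CHI3L1 (2.32).

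With slide as a random block, calls ended for 24 h minus 6 h saline in sensitized dogs in CD14 (0.89) and CD163 (0.94), for 24 h minus 6 h allergen in CD163 (0.8 in sensitized, 0.83 in nonsensitized), and for 6 h allergen minus 0 h in CD14 of nonsensitized dogs (0.75) and in CHI3L1 (1.36, 1.31). The 24 h interaction gained a call for CD14 (1.33) and CHI3L1 (2.24). With scan session as a fixed block, calls of 6 h allergen minus 0 h ended for CD14 (1.02, 0.65), MRC1 in sensitized dogs (0.68) and CHI3L1 (1.08, 0.98), and that of CD163 in 24 h minus 6 h allergen in nonsensitized dogs (0.84). The 24 h interaction gained a call for CD14 (1.43) and CHI3L1 (2.25).

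With dog as a replicate block, calls were gained by the 24 h interaction of CD14 (1.25) and CHI3L1 (2.15), by CD163 in 24 h allergen minus saline of nonsensitized dogs (−0.91) and by MRC1 in 6 h allergen minus 0 h of nonsensitized dogs (0.62). With all 60 arrays, the 24 h interaction of CD14 (1.27) and CHI3L1 (2.14) and MRC1 in 24 h allergen minus saline of sensitized dogs (0.75) gained a call, and CD163 in 24 h minus 6 h allergen (0.71) and CHI3L1 in 6 h allergen minus 0 h (1.4), both in nonsensitized dogs, lost it. The stricter filter gave a call to the CD14 interaction at 24 h (1.29), and no filter ended that of CHI3L1 in 6 h allergen minus saline of sensitized dogs (1.86). Normexp correction together with quantile scaling did both, for the CD14 interaction (1.15) and for the same CHI3L1 difference (1.46). A separate fit per time point gave a call to the 24 h interaction of CD14 (1.3) and CHI3L1 (2.21) and ended those of 6 h allergen minus saline in sensitized dogs (1.12 for CD14, 1.75 for CHI3L1), with fewer arrays in the fit.

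By the second probe of CD14, the 24 h interaction was called (1.11) and the call of 6 h allergen minus saline in sensitized dogs ended (0.78). The second CHI3L1 probe passed the filter through nonsensitized 24 h saline alone, and was well above background on 1 of 6 nonsensitized 24 h allergen arrays. Its calls in the 24 h interaction (1.95) and in 24 h allergen minus saline of nonsensitized dogs (−1.39) use that group, so they are no support and not exact differences. It was not called in 6 h allergen minus saline of sensitized dogs (0.69) or in 6 h allergen minus 0 h of nonsensitized dogs (0.96), where the lower group had 0 of 6 arrays well above background and the change was at least 1.04-fold and at least 1.14-fold.

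Within scan sessions, without a test and chosen after seeing the data, differences moved as follows. In session 1, CHI3L1 moved to 1.83 in 24 h allergen minus saline of sensitized dogs and 3.03 in the 24 h interaction. In session 2, CD14 moved to 0.49 in 6 h saline minus 0 h and 1.76 in 6 h allergen minus 0 h of sensitized dogs, to −0.65 in 24 h minus 6 h allergen and −1.09 in 24 h allergen minus saline of nonsensitized dogs, to 1.9 in the 24 h interaction, and to 1.24 and −0.65 between the groups of dogs at 24 h allergen and saline sites. CD163 moved to 1.48 in the 24 h interaction, 2.4 in 24 h minus 6 h saline of nonsensitized dogs and −1.21 between the groups of dogs at 24 h saline sites, and MRC1 to 2.18, 2.32 and −0.78 in the same comparisons. CHI3L1 moved to −1.62 in 24 h minus 6 h allergen and −2.07 in 24 h allergen minus saline of nonsensitized dogs. In session 3, 24 h minus 6 h allergen of sensitized dogs (1 array against 1) moved to 0.97 for CD14, 0.38 for CD163 and 0.85 for MRC1, and 6 h allergen minus 0 h to 0.48 (sensitized) and 0.45 (nonsensitized) for CD14 and 0.48 (nonsensitized) for CHI3L1.

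Within slides, without a test and in part from single arrays, the 24 h interaction moved on slide 2 to 0.96 for CD14, 1.55 for CD163 and 3.11 for CHI3L1, and on slide 3 to 1.9 for CD14, 1.48 for CD163 and 2.18 for MRC1. In 24 h allergen minus saline, CD14 of nonsensitized dogs moved to −0.19 (slide 2) and −1.09 (slide 3), CHI3L1 of nonsensitized dogs to −2.07 (slide 3) and CHI3L1 of sensitized dogs to 1.95 (slide 2). On slide 3, sensitized minus nonsensitized moved to 1.24 for CD14 at allergen sites, and to −0.65 for CD14, −1.21 for CD163 and −0.78 for MRC1 at saline sites. In 6 h allergen minus saline, nonsensitized dogs on slide 4 moved to −0.49 for CD163, −0.18 for MRC1 and 1.65 for CHI3L1, and sensitized dogs to 1.15 (slide 5) and 2.76 (slide 6) for CHI3L1 and 1.77 (slide 6) for CD14. In 6 h allergen minus 0 h, sensitized dogs moved to 2.2 (slide 6) and 0.54 (slide 7) for CD14 and 2.86 (slide 6) for CHI3L1, and nonsensitized dogs on slide 8 to 0.33 for CD14 and 0.22 for CHI3L1.

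With each dog left out in turn, these results changed their call at least once. In 24 h minus 6 h saline, CD14 of sensitized dogs ran from 0.76 to 1.12 and CHI3L1 of nonsensitized dogs from 1.25 to 1.79. In 6 h allergen minus saline of sensitized dogs, CD14 ran from 0.97 to 1.22 and CHI3L1 from 1.45 to 1.91. In 6 h allergen minus 0 h, sensitized dogs ran from 0.67 to 0.77 for MRC1 and 1.13 to 1.7 for CHI3L1, and nonsensitized dogs from 0.58 to 1.13 for CD14, 0.49 to 0.76 for MRC1 and 0.78 to 1.65 for CHI3L1. In 24 h minus 6 h allergen, CD163 ran from 0.99 to 1.31 in sensitized and 0.45 to 0.89 in nonsensitized dogs. In 24 h allergen minus saline of nonsensitized dogs, CD163 ran from −1.08 to −0.69, MRC1 from −1.06 to −0.9 and CHI3L1 from −1.51 to −1.19. The 24 h interaction ran from 1.06 to 1.44 for CD14, 1.47 to 1.75 for MRC1 and 2.02 to 2.42 for CHI3L1.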

Other observations

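Specimen 14, the sensitized 24 h allergen site of dog 2839, was measured but left out of the comparisons. Its RNA was of low integrity by the study's own account, and its array was the dimmest of all 60. When all 60 arrays were scaled together, its MRC1 was 11.72 and its CD163 11.1, above the 5 other sites of its group (10.3 to 11.49 and 9.01 to 10.41). Its CD14 was 9.23, below the others (9.27 to 9.63), and its CHI3L1 was 9.2, within them (9.01 to 10.15). These are values of the brightest probes. By the second probe its CD163 was 8.62, within the others (7.42 to 9.28), so the high CD163 was not seen in both probes. Its CD14 by the second probe was 6.86, again below the others (7.48 to 8.24).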
